A study of Mus musculus with 6 samples.

Results

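The machinery that lets cells secrete and release Wnt proteins was followed here through 9 genes: Wls, Tmed2, Tmed5, Vps35, Snx3, Gpc3, Gpc4, Gpc6 and Notum. They were chosen by name from what their proteins do, and make up 9 of the 36047 genes quantified in infarct tissue. All 9 passed the filter on low counts, as did 20094 genes in all. The tissue was the infarcted area of the heart of C57BL6 mice aged 12 weeks, which the study describes as female, taken 48 h after ischemia/reperfusion (I/R), a period in which a coronary artery is closed and then reopened.

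One group of 3 mice received LGK-974, a small molecule that blocks the enzyme Porcupine, and the other group of 3 received dimethyl sulfoxide (DMSO), the vehicle. Every mouse, treated or not, had undergone I/R, so the comparison shows LGK-974 against vehicle in injured hearts and holds no uninjured tissue. The drug reaches the whole animal, and each library is a mixture of heart muscle, connective tissue, vessel and blood-derived cells from 1 mouse. The question the comparison addresses is whether blocking Wnt secretion changes the expression of the genes that carry Wnt out of the cell.

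A Wnt protein leaves its cell only after Porcupine has attached a fatty acid to it in the endoplasmic reticulum. The lipid is recognised by Wls (Wntless), a membrane protein that carries Wnt to the cell surface, and cargo receptors of the p24 family such as Tmed2 and Tmed5 help cargo leave the endoplasmic reticulum. Empty Wls is taken back from the surface and rescued from degradation by the retromer, whose core subunit is Vps35 and whose partner for Wls is the sorting nexin Snx3. Outside the cell, glypicans such as Gpc3, Gpc4 and Gpc6, which are anchored to the membrane and carry heparan sulfate chains, hold Wnt, and the secreted enzyme Notum removes its lipid and so inactivates it. Wls and Notum are known in other tissues as genes that Wnt/β-catenin signaling itself can switch on.

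The DNA just upstream of the start site is shown for Wls and Snx3, for which the 2 groups of mice did not overlap, and for Tmed5, whose groups overlapped, so that the proximal promoters can be read side by side. The RefSeq promoter table on GRCm38.p6 held 5 of the 9 genes, and 4 of these windows lay upstream of the annotated start used here. The windows are chr3:159839400-159839649 on the plus strand, chr10:42501804-42502029 on the plus strand and chr5:108132621-108132870 on the minus strand, each printed 5′ to 3′ toward the gene, with capitals marking the GC box (on either strand), the binding motif of Sp1-type factors.
Wls: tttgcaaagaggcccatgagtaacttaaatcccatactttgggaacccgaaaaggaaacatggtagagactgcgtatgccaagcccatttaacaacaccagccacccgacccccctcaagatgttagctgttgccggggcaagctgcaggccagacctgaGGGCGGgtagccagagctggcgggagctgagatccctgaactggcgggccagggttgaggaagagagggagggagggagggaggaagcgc
Snx3: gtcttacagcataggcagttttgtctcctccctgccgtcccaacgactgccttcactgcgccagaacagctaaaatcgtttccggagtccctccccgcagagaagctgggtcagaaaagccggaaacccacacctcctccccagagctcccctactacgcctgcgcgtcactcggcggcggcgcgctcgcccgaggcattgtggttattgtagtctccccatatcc
Tmed5: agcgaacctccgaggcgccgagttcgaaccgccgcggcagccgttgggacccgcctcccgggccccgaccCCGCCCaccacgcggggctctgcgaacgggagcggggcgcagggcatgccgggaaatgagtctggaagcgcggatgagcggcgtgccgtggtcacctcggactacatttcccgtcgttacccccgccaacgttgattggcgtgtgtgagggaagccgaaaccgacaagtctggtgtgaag

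The fourth window is that of Gpc3. Both strands of the 4 windows were searched for the GC box, with the letters GGGCGG. They were also searched for the core that is recognised by TCF/LEF, the DNA-binding partners of β-catenin, with the letters CTTTGA, and for the TATA box, with the letters TATAAA. A GC box was found in 3 of the 4 windows, those of Wls, Tmed5 and Gpc3, and in 32.7% of the 32851 promoter windows of the table. The TCF/LEF core was found in 0 of the 4 and in 13.8% of all windows, and the TATA box in 0 of the 4 and in 12.4% of all. No matches of different motifs overlapped. These are counts of letters in short windows and say nothing of where a factor binds. The Snx3 window, without any of the 3 motifs, and the Wls window, with 1 GC box, belonged to genes with the same direction of difference.

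Depth was 41579787 to 80398211 estimated counts per library, and 28.2 to 53.7% of the counts were mitochondrial in the LGK-974 libraries against 39.3 to 42.8% in the DMSO libraries. Values are given as CPM, estimated counts scaled to a common library total with the TMM method, which adjusts for the composition of a library but not for gene length. DMSO replicate 1 stood apart: of the 6 libraries, it held the lowest value of 27.2% and the highest of 40.3% of the tested genes. Among the 9 genes it was the lowest library for 5 (Wls, Tmed2, Gpc4, Gpc6 and Snx3) and the highest for 2 (Gpc3 and Vps35). LGK-974 replicate 3 came next, with the lowest value of 23% and the highest of 22.5% of the tested genes, and it was the highest library for 4 of the 9 (Wls, Tmed2, Gpc4 and Snx3). The part of these libraries in the differences was not tested. Heart muscle markers identified the tissue, since all 10 were abundant and summed to 20074 to 35084 CPM in each library.

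None of the 9 genes passed an adjusted p of 0.05 in edgeR's quasi-likelihood test. The same test called 0 of the 20094 genes, 0% of those tested, and its lowest adjusted p over all genes was 0.368, while 2 of the 9 had an unadjusted p under 0.05. Both of these, Gpc6 and Snx3, had the higher mean with LGK-974, the direction in which 6.26% of all tested genes had such a p, against 7.18% in the other direction. The groups did not overlap for 3 genes (Wls, Gpc6 and Snx3), all with LGK-974 above, as in 10.7% of all tested genes, and for 0 genes with LGK-974 below, as in 7.27% of all. DESeq2 called 289 genes after adjustment and limma-voom 0, with 0 of the 9 among them in either. Before adjustment each had 3 of the 9 under 0.05, beside 4477 of 34257 genes with DESeq2 and 1949 of 20094 with limma-voom. The median log2 fold change of the 9 genes was 0.18, beside −0.13 over all tested genes, with 6 genes higher and 3 lower. Without DMSO replicate 1 the median was 0.151 and 2 of the 9 had an unadjusted p under 0.05 in edgeR's test, beside 2041 of 18547 genes. Without DMSO replicate 3 the median was 0.45. Without LGK-974 replicate 1, 2 or 3 only 1 of the 9 had such a p. Over all tested genes the number with such a p was then 1526 of 18775, 1826 of 19684 and 821 of 19712. With all 6 libraries it was 2699 of 20094.

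**Figure D1:**
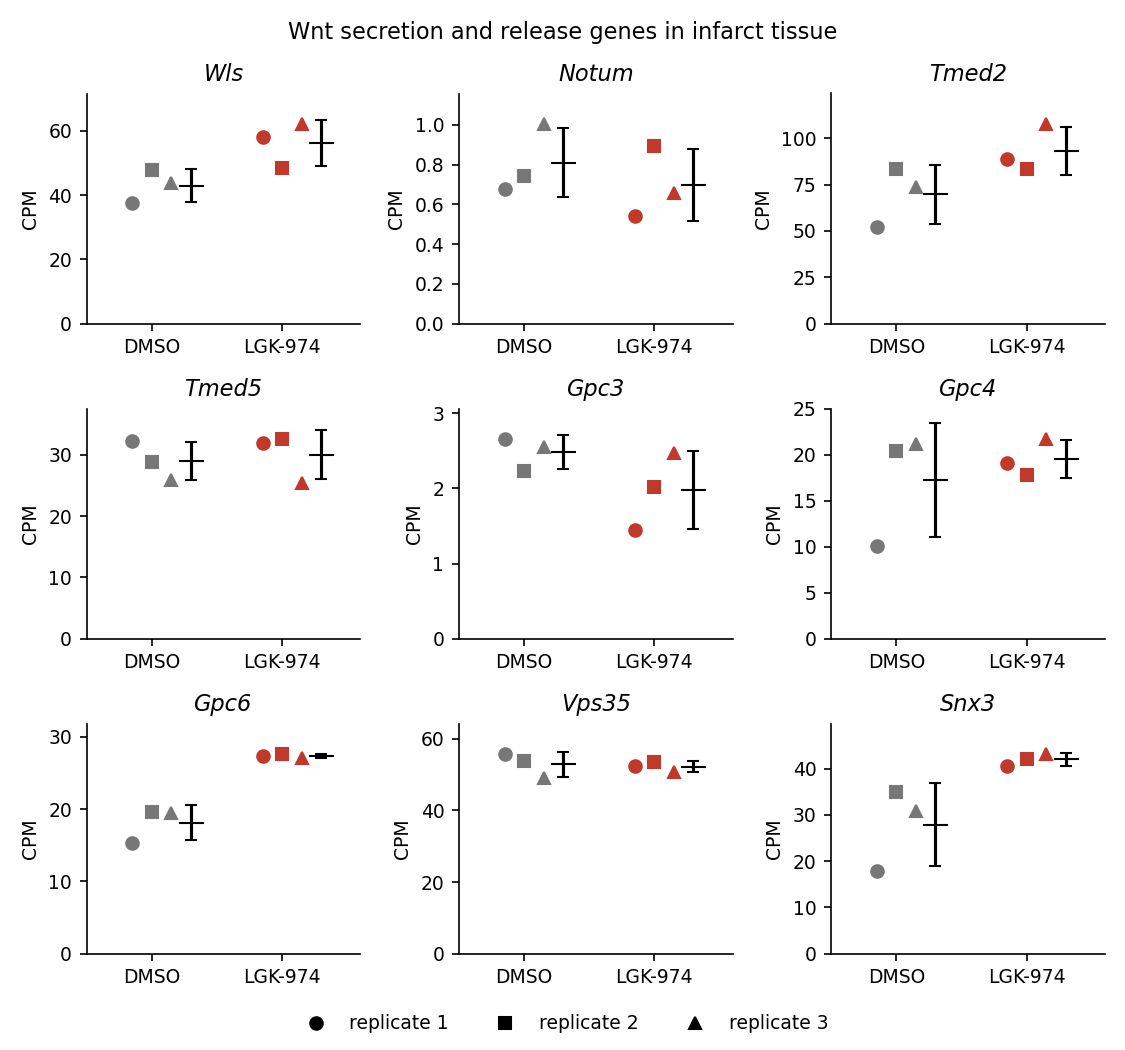
Level of each of the 9 genes in the 6 libraries, in TMM-scaled CPM on axes that start at 0. Points are mice, with one symbol for each replicate number, and the black bar is the group mean with its SD (n = 3). The groups are separate for Wls, Gpc6 and Snx3 and overlap for the other 6 genes, and DMSO replicate 1 is the lowest point in 5 panels.

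Wls (ENSMUSG00000028173.10), the carrier of lipid-modified Wnt, lies on chr3:159839672-159938664 on the plus strand of GRCm38. It measured 58.2, 48.3 and 62.2 CPM in LGK-974 replicates 1, 2 and 3, and 37.4, 47.6 and 43.6 CPM in DMSO replicates 1, 2 and 3. The groups did not overlap, but LGK-974 replicate 2 and DMSO replicate 2 lay close together at the border. The means were 56.2 ± 7.18 CPM with LGK-974 and 42.9 ± 5.17 CPM with DMSO (SD, n = 3 each). The difference was 0.39 on the log2 scale (SE 0.17, 95% interval −0.00365 to 0.785), with an unadjusted p of 0.0517 and an adjusted p of 0.368 in edgeR's test. Its unadjusted p lay on either side of 0.05 over 15 alternatives. In edgeR's test it ranged from 0.00461 with coding transcripts alone to 0.136 without LGK-974 replicate 3. The unadjusted p was 0.0484 with DESeq2 and 0.0473 with limma-voom. Without DMSO replicate 1 the log2 fold change was 0.319, with an unadjusted p of 0.0849 in edgeR's test.

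Tmed2 (ENSMUSG00000029390.13, chr5:124540695-124550506, plus strand) is the p24 cargo receptor that pairs with other p24 proteins on vesicles between the endoplasmic reticulum and the Golgi. Its values were 88.6, 83.2 and 108 CPM in the LGK-974 mice and 52.0, 83.3 and 73.9 CPM in the DMSO mice. DMSO replicate 2 exceeded the lowest LGK-974 mouse by a small margin, so the groups overlapped. The means were 93.2 ± 13.0 and 69.7 ± 16.1 CPM (SD, n = 3 each). In edgeR's test the log2 fold change was 0.42 (SE 0.216, 95% interval −0.0816 to 0.920, adjusted p = 0.386), and it was 0.263 without DMSO replicate 1.

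Tmed5 (ENSMUSG00000063406.11, chr5:108106366-108132620, minus strand) is a second p24 receptor. It measured 31.96, 32.7 and 25.4 CPM with LGK-974 and 32.2, 28.8 and 26.0 CPM with DMSO. The groups covered the same range, and the log2 fold change in edgeR's test was 0.05 (SE 0.163, 95% interval −0.327 to 0.427, adjusted p = 0.894). Its sign changed with the filter and with the mouse left out. Its exons share 395 bases, 5.14% of their length, with exons of Mtf2 on the opposite strand, and whether strand was used in counting is not given in the sources used here.

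Vps35 (ENSMUSG00000031696.9, chr8:85260392-85299802, minus strand), the retromer core, had the log2 fold change nearest to 0 of the 9 genes. The LGK-974 mice measured 52.4, 53.6 and 50.7 CPM and the DMSO mice 55.9, 53.7 and 49.0 CPM. All 6 values lay close together, and the log2 fold change in edgeR's test was −0.02 (SE 0.139, 95% interval −0.34 to 0.307, adjusted p = 0.963). The sign of this value changed with the scaling, with the transcripts counted and with the mouse left out. These totals include transcripts annotated as retaining an intron, which held 49.4% of the counts in DMSO replicate 1. Coding transcripts alone gave Vps35 a log2 fold change of 0.233 (unadjusted p = 0.172 in edgeR's test). Its exons share 171 bases, 1.92% of their length, with exons of Orc6 on the opposite strand.

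Snx3 (ENSMUSG00000019804.12, chr10:42502030-42535381, plus strand), the sorting nexin that brings the retromer to Wls on endosomes, was higher in all 3 LGK-974 mice. It measured 40.5, 42.2 and 43.3 CPM with LGK-974 and 17.8, 34.9 and 30.8 CPM with DMSO. The LGK-974 mice were tightly grouped, while the DMSO mice were spread out by replicate 1. The means were 42.0 ± 1.39 and 27.9 ± 8.94 CPM (SD, n = 3 each), a fold of 1.51. This is a log2 fold change of 0.59 (SE 0.244, 95% interval 0.0256 to 1.16), with an unadjusted p of 0.0425 and an adjusted p of 0.368 in edgeR's test. Without DMSO replicate 1 the log2 fold change was 0.37 and the unadjusted p in edgeR's test 0.0305. With any 1 of the LGK-974 mice left out, the unadjusted p in edgeR's test was above 0.05 (0.0755, 0.0928 and 0.0866 for replicates 1, 2 and 3).

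**Figure D2:**
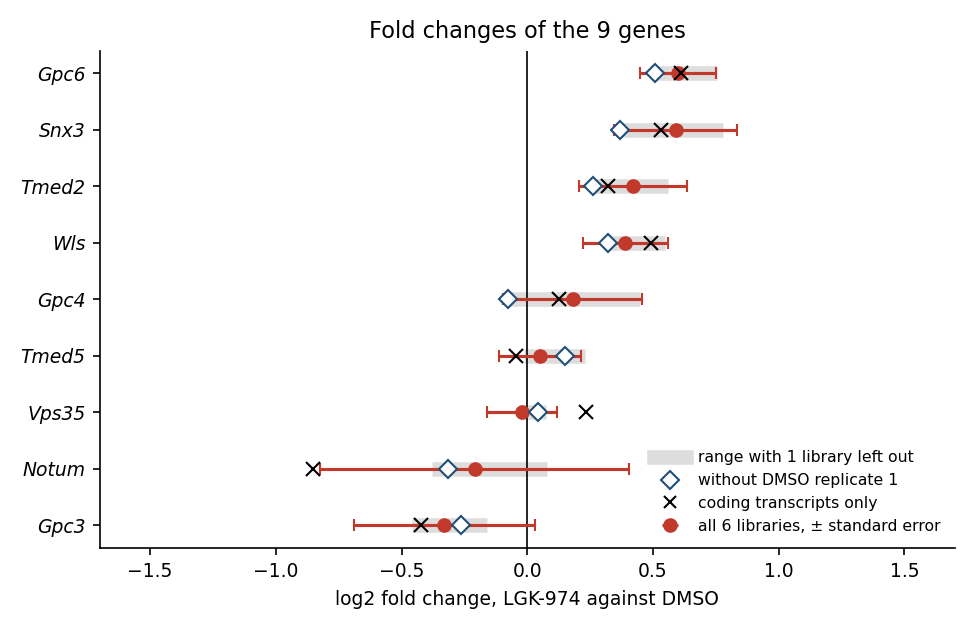
Log2 fold change of each of the 9 genes, LGK-974 against DMSO, with the standard error from edgeR's quasi-likelihood fit (red). Grey bands show the range with 1 library left out, diamonds the value without DMSO replicate 1, and crosses the value from transcripts annotated as protein-coding, an alternative added after the data were seen. Gpc6, Snx3, Tmed2 and Wls stay above 0 in all of these, while Gpc4, Tmed5, Vps35 and Notum have values on both sides of it.

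Gpc6 (ENSMUSG00000058571.11, chr14:116925315-117976544, plus strand), a glypican with a very long gene, had the smallest p of the 9 genes. It measured 27.4, 27.7 and 27.0 CPM in the LGK-974 mice and 15.3, 19.6 and 19.4 CPM in the DMSO mice. The groups were well apart, and the LGK-974 mice were nearly identical. The means were 27.4 ± 0.333 and 18.1 ± 2.41 CPM (SD, n = 3 each), a fold of 1.51. This is a log2 fold change of 0.60 (SE 0.151, 95% interval 0.246 to 0.947), with an unadjusted p of 0.00456 and an adjusted p of 0.368 in edgeR's test. Without DMSO replicate 1 the log2 fold change was 0.507, with an unadjusted p of 0.00685 in edgeR's test. Under 15 alternatives the log2 fold change stayed between 0.507 and 0.755 and the unadjusted p between 0.00211 and 0.0256. The adjusted p lay between 0.112 and 0.772 in these alternatives, so no alternative called it.

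Gpc4 (ENSMUSG00000031119.4, chrX:52053021-52165252, minus strand), its closest relative among glypicans, gave 19.1, 17.8 and 21.8 CPM with LGK-974 and 10.1, 20.5 and 21.2 CPM with DMSO. DMSO replicate 1 alone was low, and the other 5 mice lay together. EdgeR gave a log2 fold change of 0.18 (SE 0.278, 95% interval −0.464 to 0.826, adjusted p = 0.752). It was −0.075 without DMSO replicate 1, a change of sign.

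Gpc3 (ENSMUSG00000055653.13, chrX:52272426-52613950, minus strand), the neighbour of Gpc4 on the X chromosome, was scarce in this tissue, with 104 to 158 estimated counts per library. It measured 1.45, 2.02 and 2.47 CPM with LGK-974 and 2.66, 2.23 and 2.55 CPM with DMSO, so the groups overlapped. EdgeR gave a log2 fold change of −0.33 (SE 0.359, 95% interval −1.16 to 0.505, adjusted p = 0.649). It stayed below 0 in all 15 alternatives, the opposite side from Gpc6, but whether these glypicans differ from each other in their response was not tested.

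Notum (ENSMUSG00000042988.10, chr11:120653788-120661175, minus strand), the enzyme that strips the lipid from released Wnt, was the scarcest of the 9 genes, with 27 to 48 estimated counts per library. It measured 0.542, 0.896 and 0.658 CPM with LGK-974 and 0.679, 0.745 and 1.01 CPM with DMSO. The groups overlapped, and the log2 fold change in edgeR's test was −0.21 (SE 0.614, 95% interval −1.64 to 1.21, adjusted p = 0.876). The interval reaches beyond 1 log2 unit on both sides of 0, so it holds changes of that size in both directions.

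The Notum values lay close to those of receptor gene families that were taken as unused in heart. Whether these are silent in this tissue was not tested. A set of 1457 olfactory, vomeronasal and taste receptor genes had a median of 10.9, 4.25 and 2.97 counts per kb of transcript in the LGK-974 libraries and 31.9, 11.5 and 2.98 in the DMSO libraries. Notum had 20.8, 21.7 and 19.0 counts per kb with LGK-974 and 12.2, 16.3 and 18.5 with DMSO. In DMSO replicate 1 it sat at the 6.38th percentile of the receptor genes, and at the 60.4th to 78.3rd in the other 5 libraries. Its exons also share 708 bases, 29.4% of their length, with the antisense gene Notumos and 210 bases, 8.72%, with Myadml2os, whose reads cannot be told apart from those of Notum without strand. The part of such background in the Notum value was not tested, and expression of Notum above background was not shown. Gpc3, with 46.9 to 71.3 counts per kb, stood at the 63.3rd percentile in DMSO replicate 1 and between the 79.3rd and 93.4th in the other libraries. The other 7 genes were at or above the 83rd percentile in every library. The lowest were Gpc6 (83rd) and Gpc4 (83.4th) in DMSO replicate 1, the library with the highest median of the receptor genes. There they had 147 and 151 counts per kb, below the 95th percentile of the receptor genes at 411. In the other libraries both stood at the 96.8th percentile or above.

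Levels of different genes were compared as TPM, which divides the counts by transcript length before scaling. Tmed2 was the most abundant by TPM in all 6 libraries, at 22.3 to 130 TPM. Next came Snx3 (10.1 to 57.4 TPM), Wls (11.4 to 40.6 TPM) and Vps35 (12.3 to 27.2 TPM), in this order in 5 libraries and in the reverse order in DMSO replicate 1. Tmed5 took the fifth place in every library at 8.08 to 21.1 TPM. Gpc4 (2.69 to 14.1 TPM) and Gpc6 (2.84 to 13.6 TPM) changed places, each being the higher in 3 of the 6 libraries, so their TPM levels do not differ beyond the spread. Gpc3 (0.709 to 2.06 TPM) and Notum (0.330 to 1.03 TPM) were eighth and ninth in every library. LGK-974 replicate 3, the library with the smallest mitochondrial share, had the highest TPM for all 9 genes, so TPM was not used to compare mice.

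The 9 genes have 37 transcripts in the deposited tables, of which 29 could be tested. Of these, 21 had a log2 fold change above 0 and 8 one below it, while the median over all tested transcripts was −0.04. Transcripts of the same gene are not independent of each other. An adjusted p of 0.05 was passed by 0 of the 29, as by 0% of the 58618 transcripts tested (lowest adjusted p in edgeR's test 0.652 over all and 0.853 over these 29). Of the 29, 3 had an unadjusted p under 0.05, and all 3 were higher with LGK-974, beside 3.22% of all transcripts in that direction and 2.06% in the other. The division of reads between transcripts of 1 gene is an estimate by the quantification program and adds uncertainty to these values.

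Both Wls transcripts with such a p are annotated as protein-coding. Wls-201, the leading Wls transcript by TPM, measured 41.5, 34.3 and 36.6 CPM with LGK-974 and 21.2, 27.4 and 29.1 CPM with DMSO. Its log2 fold change was 0.53 (SE 0.201, unadjusted p = 0.0336 and adjusted p = 0.853 in edgeR's test). Wls-205 measured 5.54, 6.08 and 8.24 CPM with LGK-974 and 2.67, 3.48 and 3.64 CPM with DMSO, a log2 fold change of 1.02 (SE 0.297, unadjusted p = 0.0112 in edgeR's test). The groups did not overlap for either transcript. The third was Tmed2-205, annotated as a target of nonsense-mediated decay, a pathway that degrades transcripts with an early stop codon. It measured 2.17, 4.01 and 6.09 CPM with LGK-974 and 0.988, 2.32 and 1.31 CPM with DMSO, and these groups overlapped. Its log2 fold change was 1.41 (SE 0.533, unadjusted p = 0.0341 in edgeR's test).

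The leading transcript of a gene is the one with the highest mean TPM, and those of 7 other genes follow. Gpc6-202 measured 18.5, 17.1 and 16.1 CPM with LGK-974 and 9.04, 11.7 and 14.5 CPM with DMSO, without overlap (log2 fold change 0.55, unadjusted p = 0.0501 in edgeR's test). Snx3-201, which held 94.5 to 100% of the Snx3 counts, measured 42.1, 42.4 and 42.7 CPM with LGK-974 and 16.6, 34.2 and 31.1 CPM with DMSO (log2 fold change 0.64, unadjusted p = 0.0645 in edgeR's test). Tmed2-201 (0.45), Tmed5-201 (0.36), Gpc4-201 (0.21) and Gpc3-201 (0.10) had overlapping groups, with log2 fold changes as given in brackets. For Notum the leading transcript by TPM was Notum-201, annotated as a retained intron, which held 0 to 91.3% of the Notum counts depending on the library.

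Transcripts annotated as retaining an intron took an uneven share of the counts. For Vps35 they held 49.4% in DMSO replicate 1, 22.8% in DMSO replicate 2 and 8.04 to 14.0% in the other 4 libraries. For Wls the share was 33.6% in DMSO replicate 1 and 12.3 to 15.5% elsewhere, and for Gpc6 it was 39.9% in DMSO replicate 1 and 16.7 to 29.6% elsewhere. Over all nuclear protein-coding genes the share was 7.09% in DMSO replicate 1, with 6.06 to 6.46% elsewhere. DMSO replicate 1, the lowest library for 5 of the genes, had the highest retained-intron share in these 3 genes. That was not so for Notum and Tmed2, which also had such transcripts. The Notum share was 18.3% in DMSO replicate 1 and 0 to 91.3% elsewhere. For Tmed2 it was 0.628% there and 0.332 to 0.731% elsewhere. Gpc4 and Snx3, also lowest in that library, had no such transcripts, and Vps35 was highest in it. The part of this share in the gene values was not tested.

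**Figure D3:**
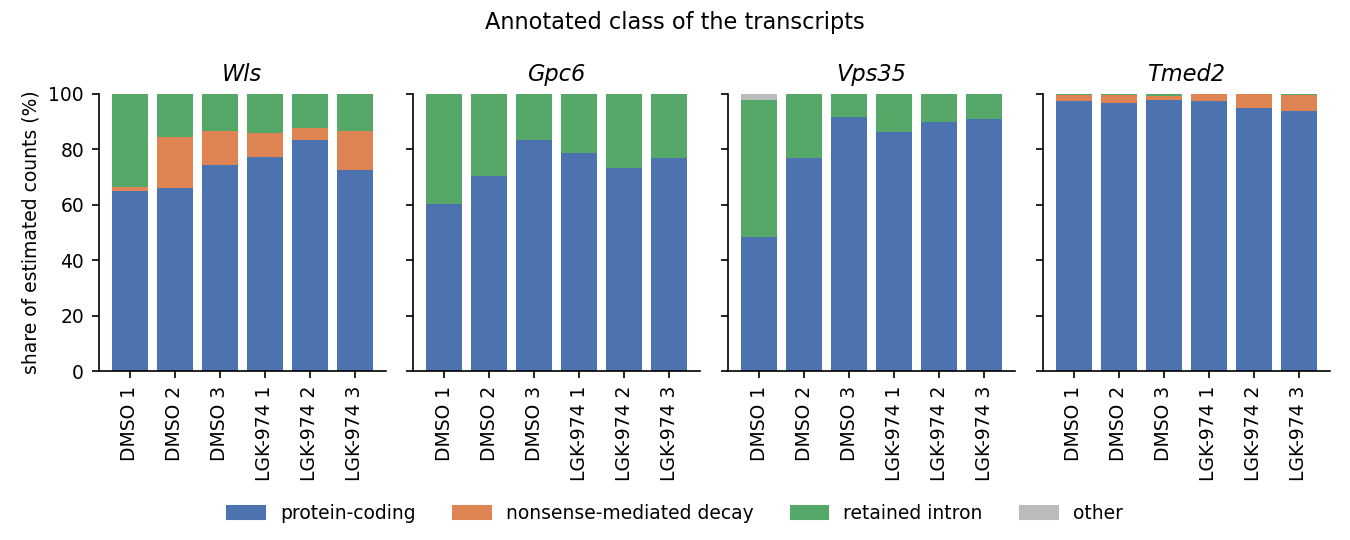
Share of the estimated counts of Wls, Gpc6, Vps35 and Tmed2, in percent, by the annotated class of the transcript, with 1 bar for each library. The retained-intron share (green) is the highest in DMSO replicate 1 for Wls (33.6%), Gpc6 (39.9%) and Vps35 (49.4%), whereas Tmed2 counts were 93.7 to 97.5% protein-coding throughout.

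The rest of the route was read through 7 lists of genes that act in it, which hold 53 genes besides the 9. Of the 50 that could be tested, 40 had a positive and 10 a negative log2 fold change for LGK-974 against DMSO, and the median was 0.19. An unadjusted p under 0.05 was reached by 11, all higher, and by 0 in the lower direction, beside the shares of 6.26% and 7.18% over all tested genes given above, and 0 passed after adjustment in edgeR's test. DESeq2 called 1 after adjustment, Sulf1. The LGK-974 mice lay wholly above the DMSO mice for 17 of the 50 genes and wholly below for 1, beside 10.7% and 7.27% of all tested genes. DMSO replicate 1 was the lowest library for 37 of the 50, and without it 9 genes were higher and 1 lower at an unadjusted p under 0.05.

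The retromer list held the most such genes of the 7 lists. Of the 9 retromer and sorting nexin genes besides Vps35 and Snx3, 4 had an unadjusted p under 0.05, all higher with LGK-974, and the median log2 fold change of the 9 was 0.31. Snx2 and Snx5, which with Snx1 form the membrane-bending dimers that work beside the retromer, had log2 fold changes of 0.45 (SE 0.143) and 0.45 (SE 0.151). Snx2 measured 57.4, 56.6 and 53.3 CPM with LGK-974 and 37.1, 43.3 and 42.5 CPM with DMSO. Snx1 measured 23.6, 25.0 and 28.0 CPM with LGK-974 and 13.7, 20.2 and 18.7 CPM with DMSO, a log2 fold change of 0.54 (SE 0.183). The fourth was Snx27, named here because the count is small, with a log2 fold change of 0.50. The retromer subunits Vps26a, Vps26b and Vps29 had log2 fold changes of 0.14, 0.16 and 0.19, all with an unadjusted p above 0.05.

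Among the p24 cargo receptors 2 of the 7 other tested genes had an unadjusted p under 0.05. Tmed3 measured 35.4, 31.1 and 40.0 CPM with LGK-974 and 18.7, 25.5 and 24.02 CPM with DMSO (log2 fold change 0.64, SE 0.176, unadjusted p = 0.00678 in edgeR's test). Tmed9 measured 41.9, 36.5 and 50.4 CPM with LGK-974 and 28.2, 33.9 and 30.2 CPM with DMSO (log2 fold change 0.48, SE 0.17). Tmed10, a partner of Tmed2, had overlapping groups and a log2 fold change of 0.23, which was 0.081 without DMSO replicate 1. Tmed6 and Tmed11 had too few counts to be tested.

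The adaptor AP-2, which gathers Wls into clathrin-coated pits, was part of the list on Wls endocytosis, in which 2 of 8 genes had an unadjusted p under 0.05. Its subunit Ap2b1 measured 59.2, 58.4 and 63.3 CPM with LGK-974 and 31.8, 47.4 and 43.0 CPM with DMSO (log2 fold change 0.57, SE 0.183). Ap2m1, the subunit that reads the sorting signal, had a log2 fold change of 0.41 (SE 0.173), and Ap2s1, whose groups overlapped, one of 0.56 (SE 0.284), or 0.338 without DMSO replicate 1. In the list on multivesicular bodies and exosomes, a route by which Wnt and Wls also leave cells, 2 of 10 genes had such a p. They were Sdcbp (syntenin), with 59.7, 57.6 and 67.2 CPM against 35.5, 46.5 and 40.8 CPM (log2 fold change 0.59, SE 0.163), and Vps4b (0.36, SE 0.141). Pdcd6ip (Alix), the partner of syntenin, was separated between the groups at 118 to 125 against 70.3 to 114 CPM, with a log2 fold change of 0.36 and an unadjusted p of 0.119 in edgeR's test. Without DMSO replicate 1 its log2 fold change was 0.2.

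Heparan sulfate is the part of a glypican that binds many ligands, and of the 11 tested genes that build or edit it 1 had an unadjusted p under 0.05. This was Sulf1, an extracellular enzyme that removes sulfate groups from the chains and so alters how they hold Wnt. It measured 90.8, 81.7 and 105 CPM with LGK-974 and 42.0, 62.7 and 49.7 CPM with DMSO, with no overlap. The log2 fold change was 0.84 (SE 0.199, unadjusted p = 0.003 and adjusted p = 0.368 in edgeR's test), and DESeq2 gave an adjusted p of 0.0211. Over its alternatives the log2 fold change lay between 0.736 and 1 and the adjusted p between 0.0211 and 0.772. Ext1, which polymerises the chain, had separate groups and a log2 fold change of 0.45 (SE 0.196), and Hs2st1, a sulfotransferase, one of 0.50 (SE 0.251).

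None of the 3 other glypicans had an unadjusted p under 0.05. Gpc1, the most abundant of them, measured 65.5, 111 and 83.5 CPM with LGK-974 and 86.7, 100.1 and 132 CPM with DMSO (log2 fold change −0.29, SE 0.248). Gpc5 measured 0.919, 0.523 and 0.595 CPM with LGK-974 and 5.28, 1.05 and 0.712 CPM with DMSO, so that its log2 fold change of −1.78 (SE 0.804) turned on DMSO replicate 1 and was −0.351 at its smallest with 1 mouse left out. Gpc5 stood between the 62.3rd and 71.4th percentiles of the receptor genes used above in the 6 libraries, and its expression above background was not shown. Gpc2 (log2 fold change −1.33) was near the level of these receptor genes in all 6 libraries. Of the 6 glypicans, Gpc6 was the only one with groups that did not overlap. Gpc3 and Gpc5 kept a negative log2 fold change in every alternative that could be fitted, whereas that of Gpc4 turned negative without DMSO replicate 1, that of Gpc2 positive with coding transcripts alone, and that of Gpc1 reached 0.0 without DMSO replicate 3.

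Of the other extracellular factors, Trabd2b (Tiki2), a membrane protease that inactivates Wnt, was the 1 gene of the 50 whose LGK-974 mice all lay below the DMSO mice. It measured 67.1, 66.7 and 35.9 CPM with LGK-974 and 71.5, 91.5 and 97.7 CPM with DMSO, a log2 fold change of −0.62 (SE 0.267, unadjusted p = 0.0502 in edgeR's test). In the same edgeR test it was −0.313 (unadjusted p = 0.231) without LGK-974 replicate 3 and −0.418 (unadjusted p = 0.219) without DMSO replicate 3. Afm (afamin), a Wnt carrier of plasma, was at or near 0 apart from 1.63 CPM in DMSO replicate 1, and its log2 fold change of −2.39 (SE 1.68) rests on that library.

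**Figure D4:**
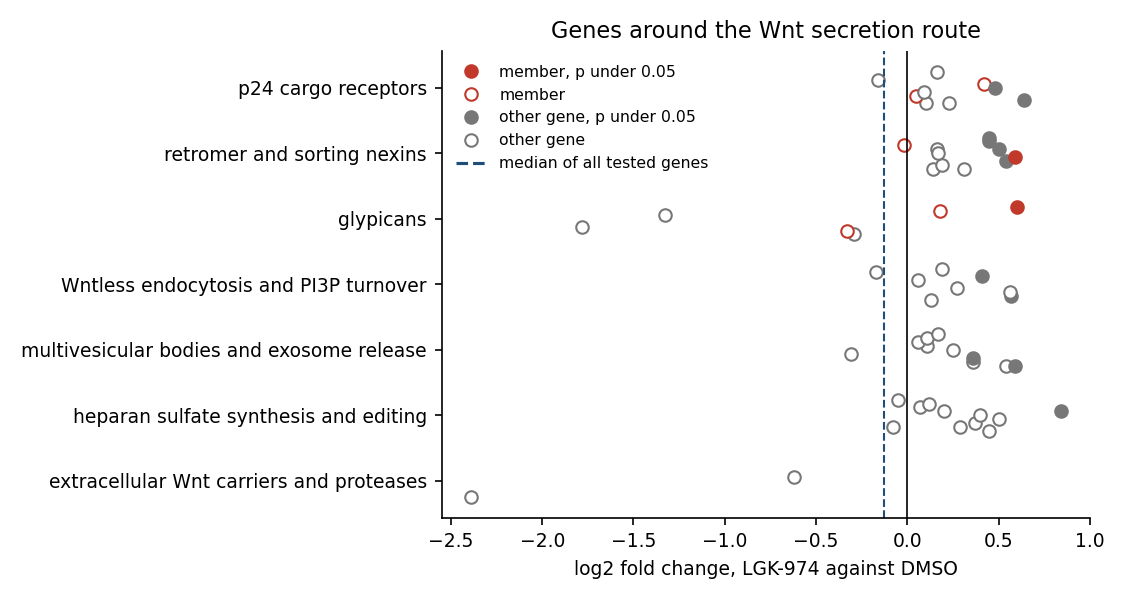
Log2 fold change, LGK-974 against DMSO, of the tested genes of the 7 lists around Wnt secretion. Red points are among the 9 genes, grey points are the others, and filled points have an unadjusted p under 0.05 in edgeR's quasi-likelihood test. All filled points lie to the right of 0, while the median of all tested genes (dashed line) is at −0.13.

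Markers of the cell types in the infarct were read in the same comparison. Over all tested genes, 6.26% had an unadjusted p under 0.05 in the higher direction and 7.18% in the lower, in edgeR's test. All 10 monocyte and macrophage markers were higher with LGK-974, 9 of them with an unadjusted p under 0.05, and their summed level was 553 to 633 CPM against 231 to 362 CPM. All 8 leukocyte markers were higher, 7 with such a p (247 to 346 against 153 to 192 CPM), and all 8 fibroblast markers were higher, 4 with such a p (3418 to 5949 against 1671 to 2473 CPM). Those 4 were the matrix genes Col1a1, Col1a2, Col3a1 and Postn. Of the other fibroblast markers, Tcf21 (log2 fold change 0.59) had separate groups, while Dcn (0.01), Pdgfra (0.13) and Lum (0.49) had overlapping groups. Of the 10 heart muscle markers 9 had lower means with LGK-974, none of these with an unadjusted p under 0.05, while Actc1 was higher with such a p. Their summed level was 20074 to 29284 CPM with LGK-974 and 25803 to 35084 CPM with DMSO. None of the 36 markers in these 4 lists was at 0 in any library or passed the adjusted threshold in edgeR's test.

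The summed levels of the other lists overlapped or touched. Endothelial markers summed to 536 to 616 CPM with LGK-974 and 457 to 646 CPM with DMSO, and those of smooth muscle cells and pericytes to 495 to 688 and 539 to 836 CPM. Mesothelial markers summed to 8.08 to 9.13 CPM with LGK-974 and 9.11 to 17.4 CPM with DMSO. Neutrophil markers had 1 of 5 tested genes, Cxcr2, lower at an unadjusted p under 0.05, and Retnlg was at 0 in 1 library. Cxcr2 measured 16.8, 12.4 and 12.0 CPM with LGK-974 and 50.3, 16.6 and 17.2 CPM with DMSO. Its groups overlapped, and DMSO replicate 1 was far above the rest. The summed macrophage, leukocyte and fibroblast levels were separate between the groups, as were Wls, Snx3 and Gpc6, and the part of these cell types in the differences was not tested. In whole tissue, fewer cells of a type and less RNA per cell cannot be told apart. By flow cytometry at the same time after I/R, the paper reported fewer leukocytes, myeloid cells and inflammatory monocytes with LGK-974. That is opposite in direction to the leukocyte and the monocyte and macrophage marker levels here. For macrophages and neutrophils the paper described a clear trend that did not reach statistical significance. Those were cell counts from whole hearts of other mice, whereas the values here are RNA of the infarcted area. How the cell counts and marker levels relate was not tested. Without DMSO replicate 1 all 10 macrophage, all 8 leukocyte and 7 of 8 fibroblast markers were still higher with LGK-974.

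**Figure D5:**
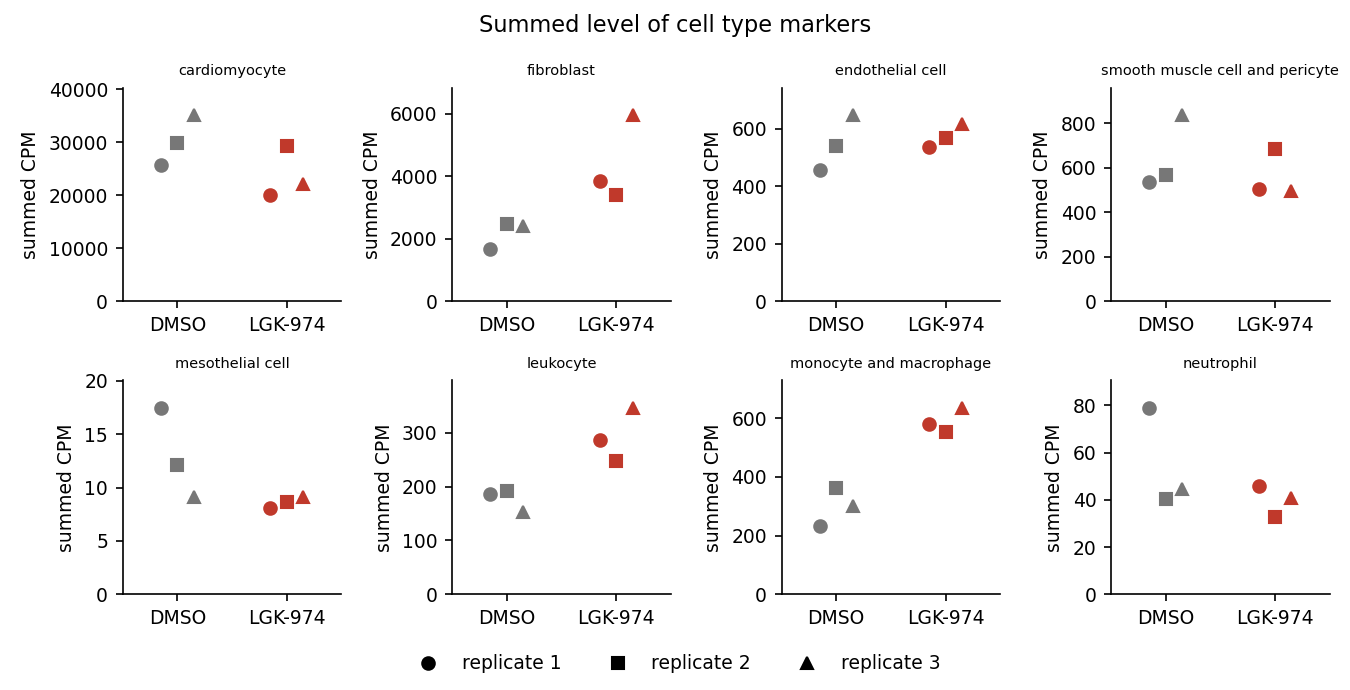
Summed CPM of 8 lists of cell type markers in the 6 libraries, with one symbol for each replicate number and axes that start at 0. The groups are separate for fibroblast, leukocyte, and monocyte and macrophage markers, with the LGK-974 mice above, and overlap for the other 5 lists.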

How the data were processed

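RNA of the infarcted area from 3 LGK-974 and 3 DMSO mice was depleted of ribosomal RNA, made into libraries with a capture kit and sequenced, per the labels. The authors quantified transcripts with Kallisto on Ensembl transcripts of GRCm38 and deposited, for each library, estimated counts and TPM values for 118489 transcripts. Estimated counts divide a read between the transcripts it matches and need not be whole, and the deposited TPM values are also scaled by transcript length. The Kallisto version, trimming and strand setting are not given in the sources used here.

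Transcript IDs were joined to GENCODE M21 (98.6% matched), and estimated counts were summed over 36047 genes and rounded. The symbol Hgs had more than 1 gene ID, of which the first was used. Features that reached 10 counts in 3 or more samples were tested, genes and transcripts separately, with edgeR 4.0.16 (R 4.3.3): TMM, quasi-likelihood, treatment as the only factor, Benjamini-Hochberg adjustment over all features, threshold 0.05. DESeq2 1.42.0 and limma-voom (limma 3.58.1) were alternatives, and the tests were tested on simulated data. The study's own test was DESeq2. Summaries and figures used Python 3.11.15, pandas 2.3.3, NumPy 2.4.6 and matplotlib 3.10.9. The 7 pathway lists, 8 marker lists and the 9 genes were chosen with earlier results of these data known. Named were the 9 genes, up to 3 other genes of each pathway list with the smallest unadjusted p, each gene's transcript with the highest mean TPM, and their transcripts with an unadjusted p under 0.05, except 1 transcript that is not reported here. Snx27, the smaller retromer subunits, the untested genes and the markers named singly were named after their values were seen. Depth was 41579787 to 80398211 estimated counts per library. Groups and replicate numbers come from the labels, which do not say how the mice relate, and the p-values measure the spread between these mice.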

Additional observations from a re-analysis of the deposited data

How the results depend on the processing

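The count of genes past the adjusted threshold depended on the method. It was 0 in edgeR's test, 289 with DESeq2 and 1206 with no filter on low counts, and 0 to 2 with 1 mouse left out, the 2 coming without DMSO replicate 1. For transcripts it was 0, 491 with DESeq2 and 1 with no filter. None of the 9 genes or their transcripts passed the threshold in any of the 15 gene or 12 transcript alternatives. The number of the 9 genes with an unadjusted p under 0.05 was 2. It was 3 with DESeq2, limma-voom, the minimum of 1 CPM in 3 samples and coding transcripts alone. It fell to 1 with counts scaled from TPM. Over all genes such a p was held by 2415 of 15108 with the minimum of 1 CPM. It was held by 2564 of 17179 with coding transcripts alone and by 2004 of 20459 with counts scaled from TPM. With 1 mouse left out the number of the 9 genes was 1 to 2, being 1 without each of LGK-974 replicates 1, 2 and 3. Over all genes it was 1526 of 18775, 1826 of 19684 and 821 of 19712 without these 3 mice. The median log2 fold change of the 9 genes was 0.181, and 0.151 to 0.45 with 1 mouse left out, the highest without DMSO replicate 3.

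Of the 40 genes and transcripts named by rule, 31 kept the sign of their log2 fold change in every alternative that could be fitted, and 9 did not. Tmed5 (0.05) was −0.011 with a minimum of 1 CPM in 3 samples and −0.044 with coding transcripts alone. Vps35 (−0.02) was 0.007 with RLE size factors, 0.017 with DESeq2, 0.145 with no filter and 0.233 with coding transcripts alone. With no filter, the log2 fold changes of all genes tested shifted upward by a median of 0.157, so those values are to be read against it. Gpc2 was 0.561 with coding transcripts alone, and Gpc3-201 was −0.033 with the minimum of 1 CPM. With 1 mouse left out, the ranges were −0.381 to 0.078 for Notum, −0.014 to 0.228 for Tmed5, −0.075 to 0.45 for Gpc4, −0.035 to 0.075 for Vps35, −0.46 to 0.0 for Gpc1, −0.304 to 0.741 for Gpc3-201 and −0.067 to 0.401 for Gpc4-201. The causes were not tested. Notum could not be fitted with the minimum of 1 CPM, since it did not reach it. The alternative on coding transcripts and the fits of the other pathway and marker counts under each alternative were chosen after seeing the data.

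The labels use replicate numbers 1, 2 and 3 in both groups but do not say that a number marks a shared origin. Deviations from the group means correlated at 0.475, −0.0482 and 0.391 between samples with the same number, and not every sample correlated best with its own number, so the numbers were not taken to pair the mice. With the replicate block, 0 genes passed the threshold and 3312 had an unadjusted p under 0.05, against 2699 without it, and the number of the 9 genes with such a p was 2 in both. Notum-201 was −0.063 with the replicate block. Notum had the fewest counts of the 9 genes, 27 to 48 per library.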
